A study of Mus musculus with 34 samples.

Results

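Fatty acid synthesis from glucose was followed through 10 genes in immortalized mouse brown preadipocytes: *Acly*, *Acaca*, *Acacb*, *Fasn*, *Elovl6*, *Scd1*, *Scd2*, *Srebf1*, *Mlxipl*, and *Thrsp*. The genes are 10 of the 23109 in the tables and were listed by name, with earlier results of these data known. Each gene was read from its RefSeq transcript with the highest mean RPKM (reads per kilobase of transcript per 1000000 mapped reads) over 14 RNA-Seq libraries. All 10 were above 0 in 11 of the 14 libraries, and the other 3, Ctrl D0 and both Nsd2 KD libraries, lacked reads for *Mlxipl*, *Thrsp*, or both. In WT cells the 10 genes were at their highest at D7, where they took 23713 of each 1000000 mapped reads, against 843 at D0, and in K36M cells at the same day they took 2212.

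De novo lipogenesis turns citrate that has left the mitochondrion into long-chain fatty acids. *Acly* encodes ATP citrate lyase, which splits citrate to give cytosolic acetyl-CoA, *Acaca* and *Acacb* encode the acetyl-CoA carboxylases that make malonyl-CoA, and *Fasn* encodes fatty acid synthase, which builds palmitate. *Elovl6* lengthens palmitate, and *Scd1* and *Scd2* encode stearoyl-CoA desaturases, which put a double bond into the saturated chain. *Srebf1* encodes SREBP1, a transcription factor activated downstream of insulin, *Mlxipl* encodes ChREBP, a factor activated by glucose metabolites, and *Thrsp* encodes a small nuclear protein named for its response to thyroid hormone. Fat tissue makes fatty acids by this route and stores them as triglyceride, and the pathway is induced late in the conversion of preadipocytes to adipocytes.

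The libraries came from 3 experiments with 1 library per condition, so no difference below has a replicate check and no test across conditions was made. Every library is labelled C57BL/6J, with cells immortalized by SV40T and carrying a floxed glucocorticoid receptor gene (GR-flox/flox), whereas the paper's methods name newborn wild-type mice as the source of the brown preadipocytes. The label text adds that the floxed cells were given an empty or a Cre retrovirus, the Cre removing the receptor gene, and does not say which of these the RNA-Seq cells had. In the first experiment, cells expressed WT or K36M mutant histone H3.3, with FLAG tags and from a retrovirus, and were collected at D0, D2, and D7 of adipogenesis. K36M replaces a lysine of the histone tail by methionine and acts dominantly on the methylation of that residue, while the cells' own histone genes were not described as removed. In the second, cells with WT or K36M H3.3 and retroviral PPARγ were treated with DMSO or with rosiglitazone (Rosi), a PPARγ ligand. The paper describes both treatments as lasting 24 h, whereas the labels give the DMSO libraries as time 0 and the Rosi libraries as 24 h. By the labels alone the ligand and a day of culture cannot be told apart. In the third, cells carried a lentivirus with a control shRNA (Ctrl) or one targeting *Nsd2* (Nsd2 KD), an H3K36 dimethyltransferase gene, and were collected at D0 and D2. Adipogenesis was induced with insulin, T3, dexamethasone, IBMX, and indomethacin, and insulin and T3 were kept afterwards, so that both hormones that act on this pathway were present up to D2 and D7.

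Libraries held 12213559 to 24365867 mapped reads, and 15868 to 20121 genes were above 0, the 2 largest numbers in the K36M cells with PPARγ. *Nsd2* was at 19.9 and 29 RPKM in Ctrl cells at D0 and D2 and at 5.85 and 7.01 RPKM in Nsd2 KD cells, so the knockdown was partial. The defining genes of brown adipocytes were close to 0 in the cells labelled brown: the summed RPKM of *Ucp1*, *Cidea*, and *Dio2* lay between 0 and 0.235 in all 14 libraries. *Fabp4*, a general adipocyte gene, was at 37.6, 3249, and 2644 RPKM in WT cells at D0, D2, and D7. *Adipoq* was at 1.56, 6.16, and 287 RPKM in these libraries, so it was high only at D7. *Lep* reached only 0.346 RPKM in WT cells at D7. The summed RPKM of *Fabp4*, *Adipoq*, *Plin1*, *Cidec*, and *Lep* was 15.1 and 1311 in Ctrl cells at D0 and D2. In Nsd2 KD cells it was 7.55 and 36.3, most of each sum being *Fabp4*. Lists of endothelial, muscle, and hepatocyte genes summed to at most 0.934 RPKM in any library, and 3 macrophage genes to at most 3.07 RPKM.

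The sequences upstream of the members are shown because the 10 genes were at their highest together and because their regulators act through short promoter motifs. RefSeq windows (GRCm38.p6) were found for 8 of the 10 members, 11 windows in all, and not for *Scd1* or *Scd2*. The 250 bases before the annotated start were searched on both strands for the E-box CACGTG, the CCAAT box CCAAT, the GC box GGGCGG, the TATA box TATAAA, and the sterol element TCACNCCAC. Capitals mark the matches in the windows of *Fasn* (chr11:120824548-120824797, minus strand), *Acly* (chr11:100528001-100528250, minus strand), one of the 3 start sites of *Srebf1* (chr11:60220628-60220877, minus strand), and both start sites of *Mlxipl* (upstream at chr5:135089640-135089889 and downstream at chr5:135106641-135106890, plus strand).
*Fasn*: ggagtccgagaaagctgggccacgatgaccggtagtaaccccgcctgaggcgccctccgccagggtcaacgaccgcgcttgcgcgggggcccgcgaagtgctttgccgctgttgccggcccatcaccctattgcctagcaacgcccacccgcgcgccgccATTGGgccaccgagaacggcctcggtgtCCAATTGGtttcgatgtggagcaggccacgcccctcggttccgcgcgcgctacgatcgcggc
*Acly*: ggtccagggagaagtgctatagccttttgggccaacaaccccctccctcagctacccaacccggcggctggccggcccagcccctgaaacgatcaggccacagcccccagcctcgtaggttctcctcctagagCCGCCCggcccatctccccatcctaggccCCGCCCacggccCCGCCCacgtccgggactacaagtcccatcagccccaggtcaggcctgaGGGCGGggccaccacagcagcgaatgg
*Srebf1*: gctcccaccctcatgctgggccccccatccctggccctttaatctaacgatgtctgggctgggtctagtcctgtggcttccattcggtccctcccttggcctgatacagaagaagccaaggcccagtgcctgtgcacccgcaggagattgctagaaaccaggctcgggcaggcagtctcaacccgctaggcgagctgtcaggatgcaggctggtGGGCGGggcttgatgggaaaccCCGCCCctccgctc
*Mlxipl*, upstream start: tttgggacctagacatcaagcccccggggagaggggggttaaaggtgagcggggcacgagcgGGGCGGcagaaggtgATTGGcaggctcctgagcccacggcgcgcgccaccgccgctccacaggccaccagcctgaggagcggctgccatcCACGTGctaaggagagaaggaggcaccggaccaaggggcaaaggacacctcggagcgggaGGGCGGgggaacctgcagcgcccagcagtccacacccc
*Mlxipl*, downstream start: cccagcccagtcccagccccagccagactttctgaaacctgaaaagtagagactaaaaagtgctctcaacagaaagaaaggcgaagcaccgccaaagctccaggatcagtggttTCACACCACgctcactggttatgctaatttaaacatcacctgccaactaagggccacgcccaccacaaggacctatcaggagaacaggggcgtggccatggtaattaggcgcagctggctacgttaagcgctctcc

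The *Fasn* window held CCAAT at 3 places, on the minus strand at -90 and -59 and on the plus strand at -62, and the last 2 overlap. The *Acly* window held 4 GC boxes, at -117, -88, -76, and -27, and the *Srebf1* window held 2, at -36 and -14. The upstream *Mlxipl* start was the only window with an E-box, at -98, and the downstream *Mlxipl* start the only one with the sterol element, at -136. Of the 11 windows, 6 held a CCAAT box, 4 a GC box, 1 a TATA box, 1 an E-box, and 1 the sterol element. Of all 32851 RefSeq windows of the same length, 33.8%, 32.7%, 12.4%, 6.02%, and 1.05% held these motifs. No motif of the 5 was found in the windows of *Acaca* and *Elovl6*. The *Acaca* window appears to lie inside the gene, judged by other members of its chromosome with positions in both genome builds. Its lack of a match therefore does not describe the sequence before the first base of the gene. A match of letters is not a measured binding site, and none of these libraries measured binding.

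In RPKM, which allows for length, the members covered a wide range of levels. At D7 in WT cells *Scd1* was at 2644 RPKM, *Fasn* and *Scd2* at 519 each, *Thrsp* at 312, *Acly* at 308, and *Srebf1* at 167. In the same library *Acaca* was at 34.8, *Mlxipl* at 34.1, *Elovl6* at 11.1, and *Acacb* at 4.48 RPKM. The isoform *Acacb* was thus the lowest member there, and its partner *Acaca* was above it in each of the 14 libraries.

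**Figure D1:**
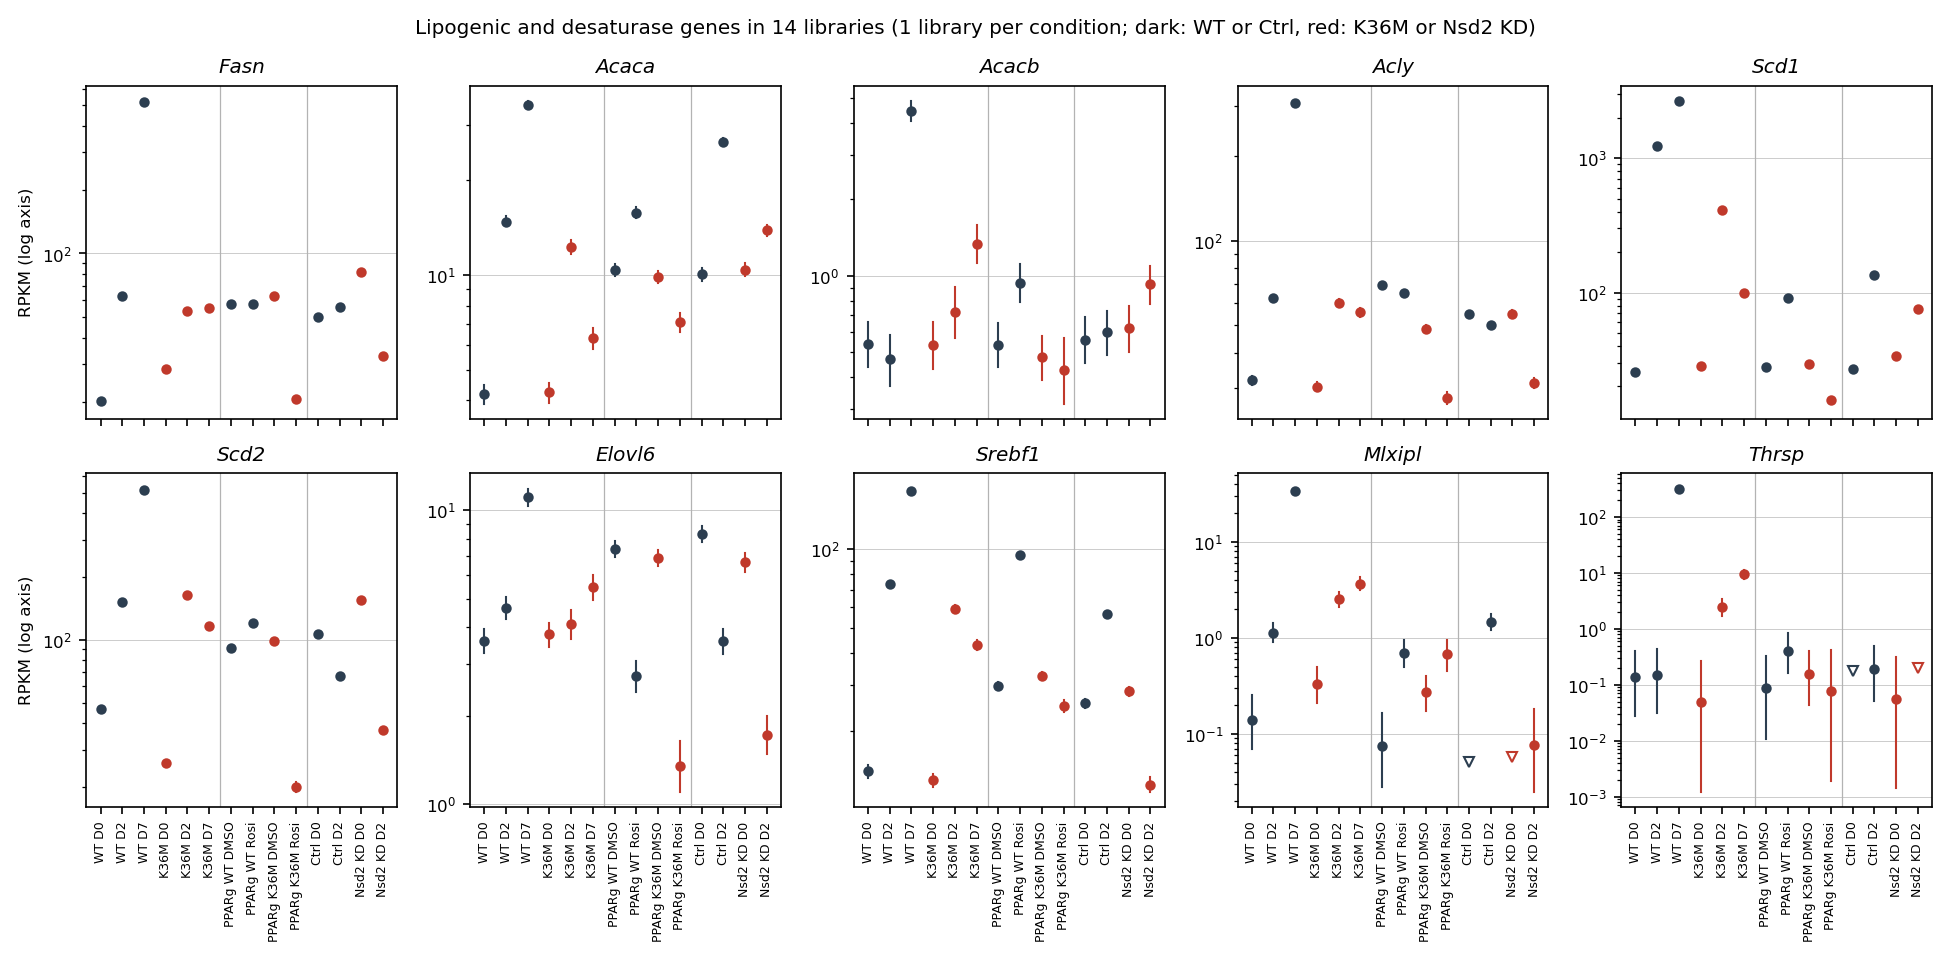
RPKM (log axis, 1 panel per gene with its own range) of the 10 genes in the 14 libraries, dark for WT or Ctrl and red for K36M or Nsd2 KD, with 95% Poisson counting intervals; open triangles are upper limits where a library had 0 reads. WT D7 is the highest point in every panel, and *Mlxipl* and *Thrsp* span more than the other panels.

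*Acly*, which supplies the acetyl-CoA, lies at chr11:100337667-100389314 (mm9, minus strand) and was read from a transcript of 4.40 kb. Its RPKM was 31.9, 62.4, and 308 in WT cells at D0, D2, and D7, and 30.3, 59.9, and 55.6 in K36M cells. The WT and K36M values lay within 1.05-fold of each other at D0 and D2 and parted at D7. In WT cells with PPARγ it was at 69.6 with DMSO and 65 with Rosi, and in K36M cells at 48.7 and 27.7. Ctrl cells had 54.8 and 50 RPKM at D0 and D2, and Nsd2 KD cells 55 and 31.3. Only WT D7 stood far from the rest, 4.43-fold above the next library.

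The carboxylase genes are *Acaca* (chr11:83943174-84215153, plus strand) and *Acacb* (chr5:114596544-114700770, plus strand). *Acaca* was at 4.18, 14.8, and 34.8 RPKM in WT cells over the 3 days and at 4.23, 12.3, and 6.29 in K36M cells. With PPARγ, *Acaca* was at 10.4 (DMSO) and 15.8 RPKM (Rosi) in WT cells and at 9.88 and 7.1 in K36M cells. It was at 10.1 and 26.5 in Ctrl cells at D0 and D2 and at 10.4 and 13.9 in Nsd2 KD cells. In each of the 3 experiments the start levels of the pair lay close together and the later library of the perturbed cells was the lower one. *Acacb* stayed between 0.428 and 0.94 RPKM in 12 libraries and left this range at D7 alone, with 4.48 RPKM in WT and 1.34 RPKM in K36M cells.

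*Fasn* (chr11:120667254-120685492, minus strand), the synthase gene, was at 20.1, 63.2, and 519 RPKM in WT cells at D0, D2, and D7. It was at 28.5, 53.5, and 55 RPKM in K36M cells, flat after D2. In cells with PPARγ it was at 57.6 and 57.7 in WT and at 62.7 and 20.6 in K36M cells, with DMSO and Rosi in turn. Ctrl cells held it at 50.1 and 56.2 RPKM and Nsd2 KD cells at 81.8 and 32.7 at D0 and D2. The lowest of the 14 values was WT D0, and 6 of the 13 pairs of neighbours in the order of levels had a counting interval of their ratio that included 1.

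The desaturase genes *Scd1* (chr19:44468941-44482199, minus strand) and *Scd2* (chr19:44368166-44381354, plus strand) lie on the same chromosome with *Scd3* (chr19:44277759-44318506). *Scd1* was at 25.5, 1229, and 2644 RPKM in WT cells and at 28.2, 414, and 98.8 in K36M cells at the 3 days. With PPARγ it was at 27.7 (DMSO) and 90.7 RPKM (Rosi) in WT cells and at 29.5 and 15.8 in K36M cells. It was at 27 and 134 RPKM in Ctrl cells and at 33.5 and 75.5 in Nsd2 KD cells, the D0 value given before that at D2. The libraries at D0 or with DMSO thus all lay between 25.5 and 33.5 RPKM, and the highest level of the 14 was 168-fold above the lowest, that of K36M cells with PPARγ and Rosi.

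*Scd2* started from more varied levels. It was at 46.8, 151, and 519 RPKM in WT cells and at 25.9, 163, and 116 in K36M cells. It was at 91.6 and 120 RPKM in WT cells with PPARγ and at 98.5 and 20 in K36M cells, with DMSO and Rosi in turn. It was at 106 and 67 in Ctrl cells and at 155 and 37.3 in Nsd2 KD cells. The 14 levels of *Scd2* all differed beyond counting error from their neighbours in order.

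The coding sequences of *Scd1* and *Scd2* are 89.6% identical with a longest identical run of 147 bases, so reads within such runs could have been assigned to either gene. The number of such reads was not measured, and a ratio that varies does not give it. The ratio of *Scd1* to *Scd2* RPKM was not constant. It was 0.544, 8.14, and 5.09 in WT cells at D0, D2, and D7, and 1.09, 2.54, and 0.848 in K36M cells. It was 0.254 and 2 in Ctrl cells and 0.215 and 2.02 in Nsd2 KD cells at D0 and D2. *Scd1* exceeded *Scd2* in each library at D2, in WT cells at D7, and slightly in K36M cells at D0, at 1.09 (95% counting interval 1.03 to 1.15), and it was below *Scd2* in K36M cells at D7 and in every library with PPARγ.

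*Elovl6* (chr3:129235304-129341413, plus strand), the elongase gene, had the narrowest range of the members, 8.18-fold from highest to lowest. It was at 3.58, 4.65, and 11.1 RPKM in WT cells and at 3.78, 4.09, and 5.48 in K36M cells. In the other experiments it was lower in the later library of each cell type, as was *Acly*. It went from 7.38 with DMSO to 2.72 with Rosi in WT cells with PPARγ and from 6.89 to 1.35 in K36M cells. It went from 8.3 to 3.59 RPKM in Ctrl cells and from 6.65 to 1.72 in Nsd2 KD cells between D0 and D2.

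Of the regulators, *Srebf1* (chr11:60012591-60036083, minus strand) was at 14.1, 73.2, and 167 RPKM in WT cells and at 13, 59, and 42.9 in K36M cells. With PPARγ it was at 29.8 and 95.2 RPKM in WT cells and at 32.7 and 25.1 in K36M cells, with DMSO and Rosi in turn. Ctrl cells had 25.6 and 56.4 RPKM at D0 and D2, and Nsd2 KD cells 28.5 and 12.5. The Nsd2 KD library at D2 was the lowest of the 14, although its counting interval against K36M D0, the next in order, included equality.

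*Mlxipl* (chr5:135582761-135614254, plus strand) rested on few reads outside the D7 libraries. It was at 0.141, 1.13, and 34.1 RPKM in WT cells (11, 79, and 1655 reads) and at 0.331, 2.52, and 3.66 in K36M cells (24, 115, and 163 reads). It had no read in Ctrl and Nsd2 KD cells at D0, 108 reads (1.47 RPKM) in Ctrl cells at D2, and 5 reads (0.0776 RPKM) in Nsd2 KD cells at D2. With PPARγ it was at 0.0756 and 0.696 RPKM in WT cells and at 0.27 and 0.671 in K36M cells. WT D7 was 9.31-fold above the next library, K36M D7.

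*Thrsp* (chr7:104561448-104566240, minus strand) was close to absent except in 3 libraries. It had 4319 reads (312 RPKM) in WT cells at D7, 121 reads (9.54 RPKM) in K36M cells at D7, and 32 reads (2.46 RPKM) in K36M cells at D2. WT cells had 3 reads each at D0 and D2, and K36M cells 1 read at D0. The 8 libraries of the other experiments held 0 to 7 reads. A transcript of 1.04 kb gives the gene few reads at a given RPKM, and at 3 reads its RPKM in WT cells at D2 was 0.151.

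**Figure D2:**
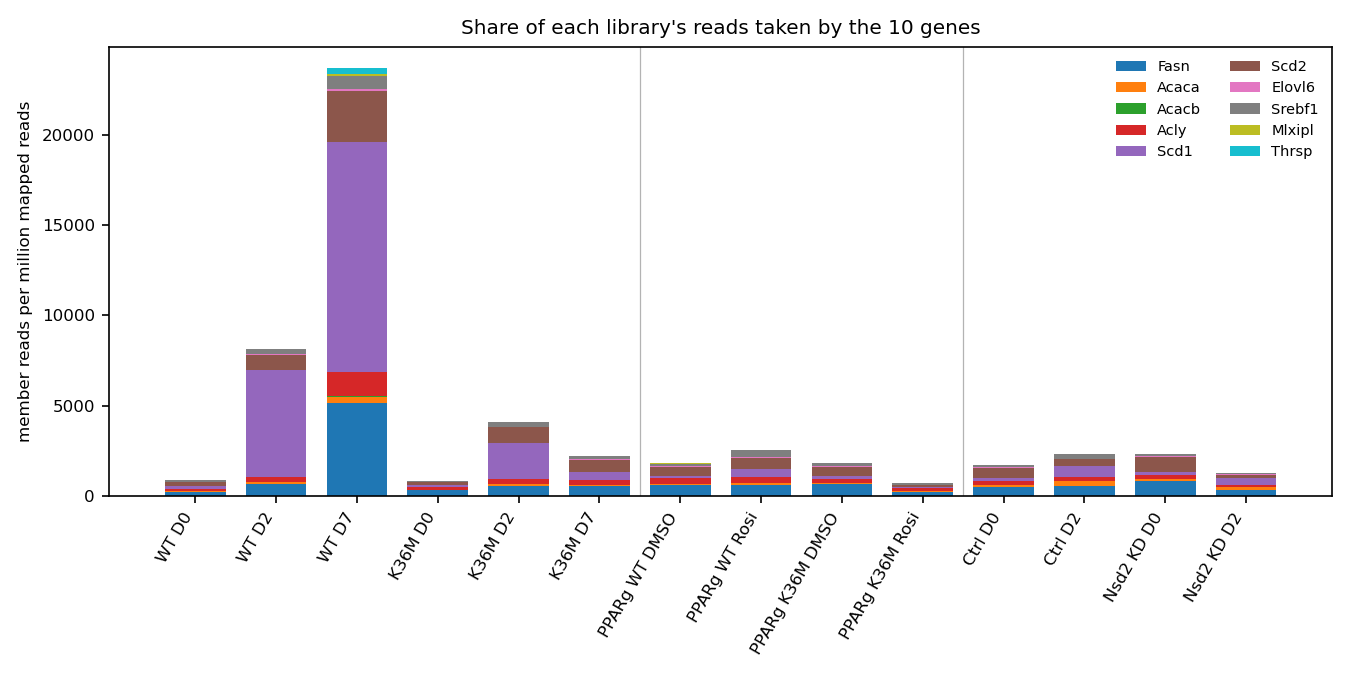
Stacked bars of the reads of the 10 genes per 1000000 mapped reads in each library, starting at 0, with grey lines between the experiments. The WT D7 bar reaches 23713 and the WT D2 bar 8153, *Scd1* being the largest part of both, while no bar of the other experiments exceeds 2532.

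The share of reads shows how unevenly the pathway was built. *Scd1* made up 14.6%, 72.9%, and 53.9% of the member reads of WT cells over the 3 days, and 16.7%, 48.9%, and 21.6% of those of K36M cells. Member reads per 1000000 mapped reads went from 843 to 8153 and 23713 in WT cells and went from 817 to 4093 and then 2212 in K36M cells. They were 1782 and 2532 in WT cells with PPARγ, and 1793 and 698 in K36M cells with PPARγ. They were 1705 and 2304 in Ctrl cells and 2324 and 1229 in Nsd2 KD cells. In each experiment the control cells ended above their start and, in the Rosi and knockdown experiments, the perturbed cells ended below it.

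The first question was which members changed during adipogenesis. A gene was called when the ratio of its RPKM was over 2-fold, and intervals are 95% Clopper-Pearson intervals of the recovered reads, which cover counting error only. From D0 to D2 in WT cells 6 of the 10 members were over 2-fold higher and none was over 2-fold lower, while 13.6% of all genes above 0 were called higher and 25.2% lower. The 6 were *Scd1*, *Mlxipl*, *Srebf1*, *Acaca*, *Scd2*, and *Fasn*. The median log2 ratio was 1.67 over the members and -0.04 over all genes. *Scd1* was 48.2-fold higher, a log2 ratio of 5.59 (5.54 to 5.65), and *Srebf1* 5.21-fold, 2.38 (2.29 to 2.47). *Acly*, *Elovl6*, *Acacb*, and *Thrsp* stayed within 2-fold, *Acly* just inside it at 0.97 (0.90 to 1.03).

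From D2 to D7 in WT cells all 10 members were over 2-fold higher, against 22.4% of all genes, and 12.2% of all genes were lower. The median log2 ratio was 2.04 over the members and 0.09 over all genes. *Fasn* was 8.21-fold higher, a log2 ratio of 3.04 (3.01 to 3.06), *Acly* 4.94-fold, 2.31 (2.26 to 2.35), and *Scd2* 3.44-fold, 1.78 (1.76 to 1.81). *Acacb*, which had not moved by D2, was 9.55-fold higher, 3.26 (2.91 to 3.62). *Mlxipl* was 30-fold higher, 4.91 (4.58 to 5.25), and *Thrsp* had a log2 ratio of 11.01 (9.46 to 13.29) that rests on 3 reads at D2. The smallest was *Scd1*, 2.15-fold at 1.11 (1.09 to 1.12). On the log2 scale *Scd1*, *Srebf1*, and *Acaca* (1.83, then 1.23) thus had the larger ratio before D2. *Thrsp*, *Mlxipl*, *Acacb*, *Fasn*, *Acly*, and *Elovl6* (0.37, then 1.25) had it after D2, and *Scd2* was nearly even, at 1.69 and 1.78. The summed RPKM of 5 adipocyte genes was 40.2, 3430, and 3311 at D0, D2, and D7, most of it *Fabp4*, which was at 3249 and 2644 RPKM at D2 and D7. The other 4 were higher at D7 than at D2, *Adipoq* at 287 against 6.16 RPKM, *Plin1* at 144 against 36.8, *Cidec* at 236 against 138, and *Lep* at 0.346 against 0. That of 5 preadipocyte or fibroblast genes was 707, 78.2, and 540, *Col1a1* being 410 RPKM at D7.

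K36M cells made a step from D0 to D2, but only *Thrsp* was over 2-fold higher from D2 to D7. The early step was smaller than in WT cells for *Scd1*, 14.7-fold against 48.2-fold, and larger for *Scd2*, 6.29-fold against 3.22-fold. At D2 against D0, 6 members were over 2-fold higher and none lower, with 16.5% and 19.6% of all genes called higher and lower, and a median log2 ratio of 1.86. Of the 6, *Acaca*, *Scd1*, *Scd2*, *Srebf1*, and *Mlxipl* were also called in WT cells, while *Thrsp* was called here and *Fasn*, at 0.91 (0.85 to 0.96), was not. From D2 to D7 only *Thrsp* was called higher and only *Scd1* lower, with 21.5% and 14.9% of all genes called. The members' median was -0.03. *Scd1* was 4.19-fold lower at D7 than at D2, a log2 ratio of -2.07 (-2.11 to -2.03), and *Acaca* 1.95-fold, -0.97 (-1.10 to -0.83). *Fasn* was at 0.04 (-0.01 to 0.09) and *Acly* at -0.11 (-0.18 to -0.04). The whole interval lay below 0 for 5 members and above 0 for 4. Those above 0 were *Thrsp* at 1.96 (1.38 to 2.57), *Acacb* at 0.89 (0.48 to 1.31), *Mlxipl* at 0.54 (0.19 to 0.90), and *Elovl6* at 0.42 (0.20 to 0.64).

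The second question was how K36M cells differed from WT cells at each day. The comparisons at a given day share their libraries with the time courses above, so they are the same values seen across and not further evidence. At D0, 8 of the 10 members lay within 2-fold, the median log2 ratio was 0.00, and 14.8% of all genes were called higher and 12.0% lower. The 2 called members rested on few reads, *Mlxipl* with 24 against 11 and *Thrsp* with 1 against 3. *Scd2* was 1.81-fold lower, at -0.85 (-0.92 to -0.79), and *Fasn* 1.42-fold higher, at 0.51 (0.45 to 0.56). At D2 *Scd1* was 2.97-fold lower, -1.57 (-1.59 to -1.55), *Mlxipl* 2.22-fold higher, 1.15 (0.72 to 1.58), and *Thrsp* higher on 32 against 3 reads, 4.02 (2.35 to 6.38). The other 7 lay within 2-fold, from -0.31 for *Srebf1* to 0.63 for *Acacb*, with a median over the 10 of -0.12, while 22.2% and 9.90% of all genes were called higher and lower.

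At D7 all 10 members were over 2-fold lower in K36M cells, against 13.2% of all genes, and 19.7% of all genes were higher. The median log2 ratio was -2.47. *Scd1* was 26.8-fold lower, -4.74 (-4.78 to -4.70), *Fasn* 9.43-fold, -3.24 (-3.27 to -3.20), *Mlxipl* 9.31-fold, -3.22 (-3.46 to -2.99), and *Thrsp* 32.7-fold, -5.03 (-5.31 to -4.77). *Acly*, *Acaca*, *Scd2*, *Srebf1*, and *Acacb* were 5.55-fold, 5.52-fold, 4.46-fold, 3.9-fold, and 3.34-fold lower. *Elovl6* was the member nearest to the threshold, 2.02-fold lower at -1.02 (-1.19 to -0.84), an interval that reaches inside 2-fold. In the same libraries the 5 adipocyte genes summed to 3311 RPKM in WT and 185 in K36M cells, of which *Fabp4* was 2644 and 143. The 5 preadipocyte or fibroblast genes summed to 540 and 740, of which *Col1a1* was 410 and 478. *Cebpa*, an adipogenic factor gene, was at 232 and 24.4 RPKM and *Pparg* at 101 and 21.4. These are bulk libraries, in which fewer adipocytes and less of each RNA per adipocyte cannot be told apart, and the part of either in the members' levels was not tested.

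**Figure D3:**
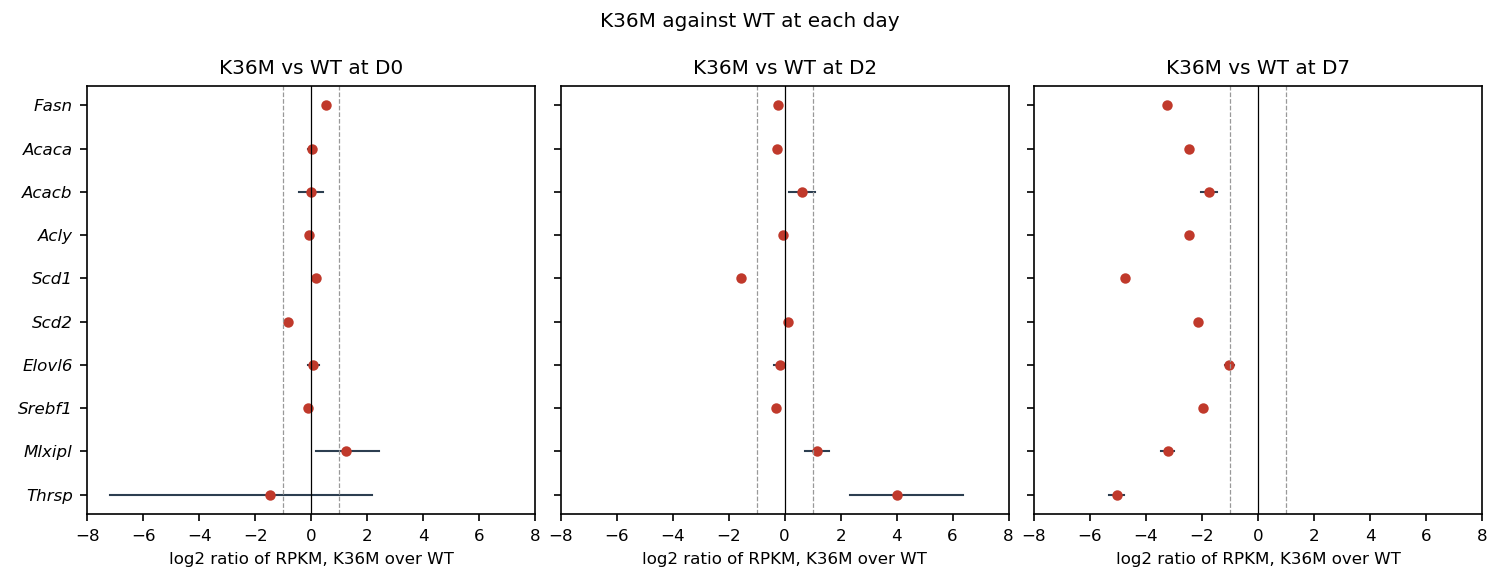
Log2 ratio of K36M to WT RPKM of each gene at D0, D2, and D7 (points) with 95% counting intervals (lines); dashed lines mark 2-fold. At D7 all points lie to the left of -1, from -1.02 for *Elovl6* to -5.03 for *Thrsp*, whereas at D0 and D2 most points lie between the dashed lines.

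The difference between the responses, K36M minus WT, was taken on the log2 scale with a counting interval. For D2 against D0 it was -1.72 (-1.80 to -1.64) for *Scd1*, -0.75 (-0.82 to -0.68) for *Fasn*, and 0.97 (0.89 to 1.04) for *Scd2*. For *Acly* it was 0.02 (-0.08 to 0.11) and for *Srebf1* -0.20 (-0.33 to -0.07), so that these members took nearly the same step in both cell types. For D7 against D2 it was below 0 for all 10 members, from -0.83 (-1.10 to -0.57) for *Elovl6* to -9.06 (-10.78 to -7.33) for *Thrsp*. It was -3.17 (-3.22 to -3.13) for *Scd1* and -3.00 (-3.05 to -2.94) for *Fasn*.

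The third question was how the members responded to Rosi in cells with PPARγ. In WT cells 4 members were called higher, against 17.0% of all genes, and 1 lower, against 16.2%, with a median log2 ratio of 0.71. *Scd1* was 3.28-fold higher, 1.71 (1.65 to 1.77), *Srebf1* 3.19-fold, 1.67 (1.61 to 1.74), and *Mlxipl* 9.2-fold on 42 against 6 reads, 3.20 (1.96 to 4.73). *Thrsp* was called on 7 against 2 reads, with an interval of -0.19 to 5.50. *Elovl6* was 2.71-fold lower, -1.44 (-1.64 to -1.24). The other enzyme genes stayed within 2-fold, *Acacb* at 0.81 (0.42 to 1.20), *Acaca* at 0.61 (0.52 to 0.69), *Scd2* at 0.39 (0.35 to 0.43), *Fasn* at 0.00 (-0.04 to 0.04), and *Acly* at -0.10 (-0.15 to -0.05). The summed RPKM of the adipocyte genes in these libraries was 120 with DMSO and 2921 with Rosi, of which *Fabp4* was 112 and 2505.

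In K36M cells with PPARγ 1 member was called higher with Rosi, against 18.3% of all genes, and 4 were called lower, against 15.0%, with a median log2 ratio of -0.86. *Elovl6* was 5.08-fold lower, -2.35 (-2.65 to -2.05), *Scd2* 4.93-fold, -2.30 (-2.38 to -2.22), and *Fasn* 3.05-fold, -1.61 (-1.67 to -1.55). The other lower call was *Thrsp*, on 1 against 4 reads, and the higher call was *Mlxipl*, on 31 against 24 reads, 1.31 (0.50 to 2.15). *Scd1* was 1.87-fold lower, -0.91 (-1.01 to -0.80), and *Srebf1* 1.3-fold, -0.38 (-0.47 to -0.29). The adipocyte genes summed to 72.6 RPKM with DMSO and 1192 with Rosi, of which *Fabp4* was 69.4 and 1148. This sum was thus higher with Rosi in the same library in which 7 of the 10 lipogenic ratios had their whole interval below 0. It was mostly *Fabp4*, and the other adipocyte genes were much lower than in WT cells with Rosi. *Adipoq* was at 5.64 against 132 RPKM, *Plin1* at 12.1 against 148, and *Cidec* at 25.7 against 136, while *Lep* was close to 0 in both.

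With DMSO the K36M and WT cells with PPARγ were alike in the members, 9 of which lay within 2-fold with a median of 0.10. Only *Mlxipl* was called, higher on 24 against 6 reads, and 23.9% and 8.31% of all genes were called higher and lower. With Rosi 9 of the 10 were over 2-fold lower in K36M cells, against 12.6% of all genes, and none higher, against 28.4%, with a median of -1.36. *Scd2* was 6.02-fold lower, -2.59 (-2.67 to -2.51), *Scd1* 5.76-fold, -2.53 (-2.62 to -2.43), *Srebf1* 3.79-fold, -1.92 (-2.01 to -1.84), and *Fasn* 2.8-fold, -1.49 (-1.55 to -1.42). *Acly*, *Acaca*, *Acacb*, and *Elovl6* were 2.35-fold, 2.23-fold, 2.2-fold, and 2.01-fold lower, and *Thrsp* was called on 1 against 7 reads. *Mlxipl* was the member that was not called, at -0.05 (-0.77 to 0.65). *Pparg*, whose retroviral copy counts only as far as its reads fall on the annotated transcript, was at 56.8 RPKM in WT and 42.6 RPKM in K36M cells in the Rosi libraries. *Cebpa* was at 187 RPKM in WT and 10.3 RPKM in K36M cells with Rosi, and at 36.2 and 7.98 RPKM with DMSO.

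The response to Rosi was lower in K36M than in WT cells for every member by its value, and by its counting interval for 9 of the 10. The difference was -2.69 (-2.78 to -2.61) for *Scd2*, -2.62 (-2.74 to -2.50) for *Scd1*, and -2.05 (-2.17 to -1.94) for *Srebf1*. It was -1.61 (-1.68 to -1.54) for *Fasn* and -0.72 (-0.81 to -0.62) for *Acly*. The exception in the intervals was *Thrsp*, at -3.26 (-7.15 to 0.63).

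**Figure D4:**
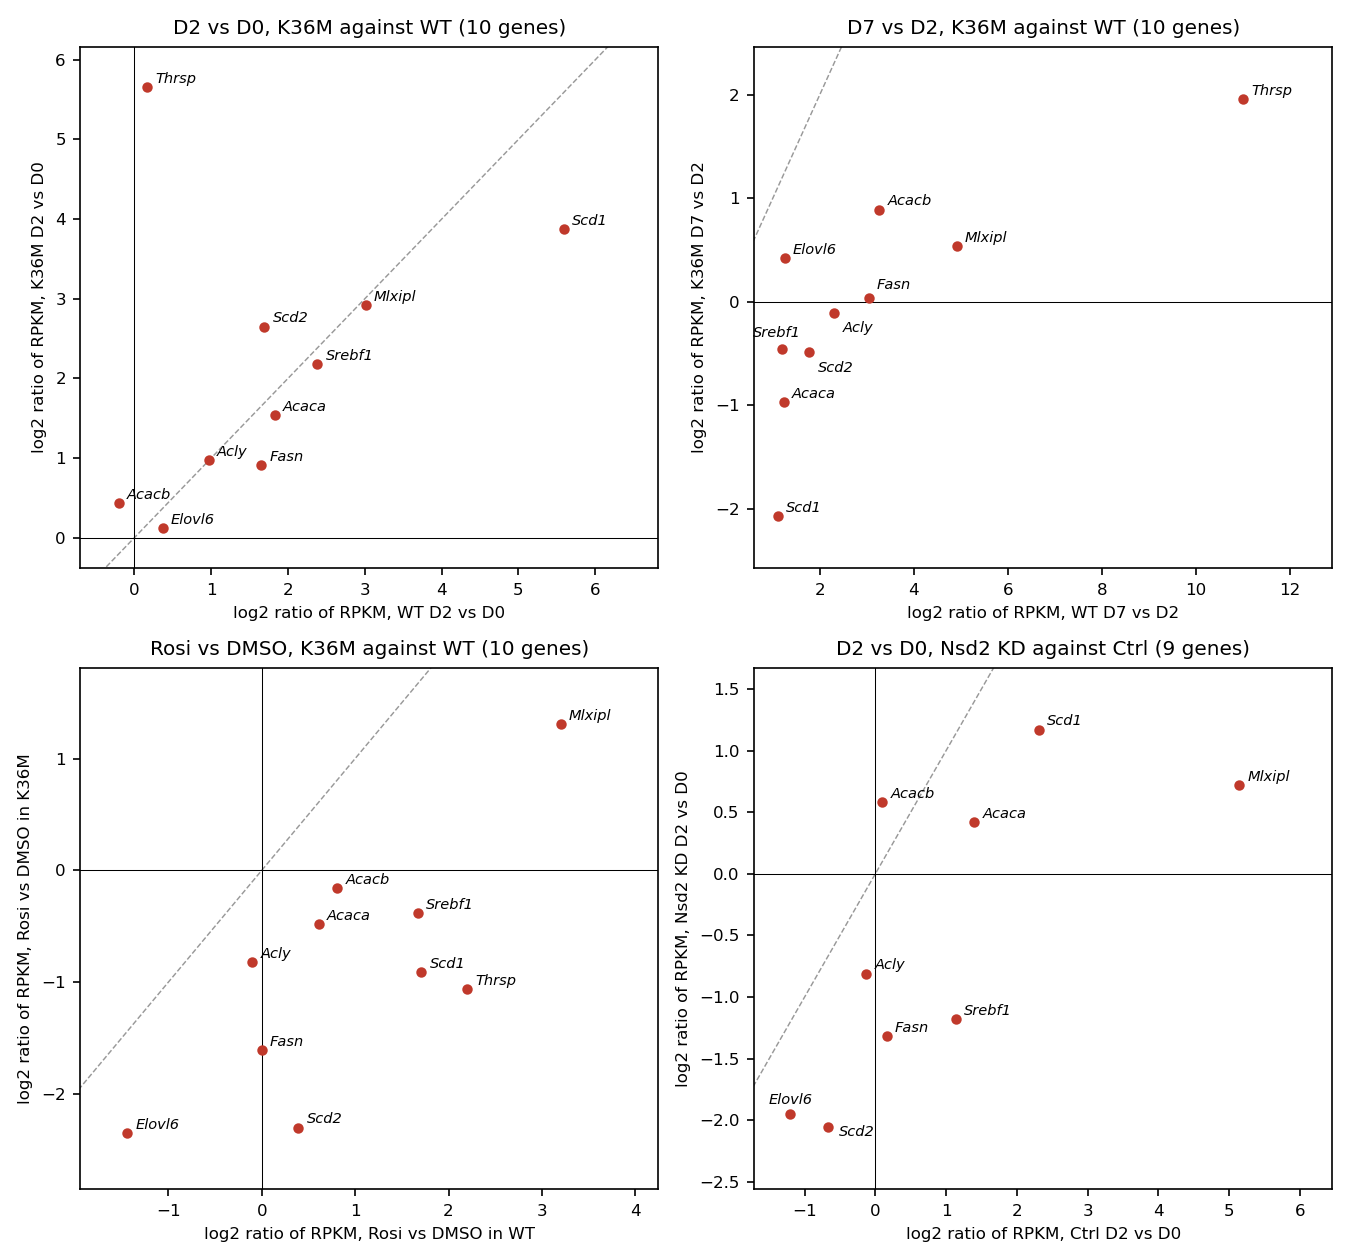
Log2 RPKM ratio of each gene in the control cells (horizontal) against the same ratio in the perturbed cells (vertical) for D2 against D0 and D7 against D2 in WT and K36M cells, Rosi against DMSO, and D2 against D0 in Ctrl and Nsd2 KD cells; dashed lines mark equal responses, and *Mlxipl* in the last panel is placed at its lower bound. All points of the D7 and Rosi panels lie below the dashed line, while those of the first panel lie on both sides of it.

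The fourth question was whether Nsd2 KD changed the members before or during the early phase. At D0 no member with reads in both libraries was over 2-fold different between Nsd2 KD and Ctrl cells, with 13.5% of all genes called higher and 18.1% lower. *Thrsp* was counted as higher from 1 read against 0. *Fasn* was 1.63-fold higher, 0.71 (0.67 to 0.74), *Scd2* 1.46-fold higher, 0.55 (0.51 to 0.58), and *Srebf1* differed by 0.15 (0.07 to 0.24). The start levels in Nsd2 KD cells were therefore at or above those in Ctrl cells for the abundant members other than *Elovl6*, at -0.32 (-0.46 to -0.18).

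In Ctrl cells 5 members were called higher at D2 than at D0, against 17.3% of all genes, and 1 lower, against 23.4%. The median log2 ratio was 0.28, with *Mlxipl* and *Thrsp* set against the floor of 3 reads. *Scd1* was 4.95-fold higher, 2.31 (2.25 to 2.37), *Acaca* 2.64-fold, 1.40 (1.32 to 1.48), and *Srebf1* 2.2-fold, 1.14 (1.06 to 1.21). *Mlxipl* had 108 reads against 0. That is 35.3-fold against the floor, while the lower end of its log2 interval was 4.82. *Thrsp* was called on 4 reads against 0. *Elovl6* was 2.32-fold lower, -1.21 (-1.38 to -1.05). *Fasn* and *Acly* were nearly level, at 0.16 (0.12 to 0.20) and -0.13 (-0.19 to -0.07). Ctrl cells and WT H3.3 cells at D2 thus differed in these members as values side by side, with *Scd1* at 134 and 1229 RPKM, and the experiments were not compared by a test.

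In Nsd2 KD cells 2 members were called higher at D2, against 16.9% of all genes, and 5 lower, against 24.5%, with a median of -0.81 over the 9 members with a value. *Scd1* was 2.26-fold higher, 1.17 (1.11 to 1.24), and *Mlxipl* was counted as higher from 5 reads against 0. *Scd2* was 4.16-fold lower, -2.06 (-2.11 to -2.00), *Elovl6* 3.86-fold, -1.95 (-2.19 to -1.71), *Fasn* 2.5-fold, -1.32 (-1.37 to -1.28), and *Srebf1* 2.27-fold, -1.18 (-1.30 to -1.07). *Thrsp* was counted as lower from 0 reads against 1.

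Between Nsd2 KD and Ctrl cells at D2, 4 members were called lower, against 18.5% of all genes, and none higher, against 12.0%, with a median of -0.83. *Srebf1* was 4.49-fold lower, -2.17 (-2.27 to -2.07), *Mlxipl* 18.9-fold lower on 5 against 108 reads, -4.24 (-5.89 to -2.98), and *Elovl6* 2.08-fold lower, -1.06 (-1.32 to -0.80). *Thrsp* was counted on 0 against 4 reads. A further 5 members lay below 0 without reaching 2-fold, *Acaca* at -0.93 (-1.01 to -0.86), *Scd2* at -0.84 (-0.90 to -0.79), *Scd1* at -0.82 (-0.87 to -0.78), *Fasn* at -0.78 (-0.83 to -0.73), and *Acly* at -0.68 (-0.75 to -0.60). *Acacb* was the only member above 0, at 0.62 (0.24 to 1.00). The adipocyte genes summed to 1311 RPKM in Ctrl and 36.3 RPKM in Nsd2 KD cells at D2, of which *Fabp4* was 1269 and 34.5. *Adipoq* was at 3.42 against 0.184 RPKM, *Plin1* at 13.8 against 0.548, and *Cidec* at 24.6 against 1.06, while *Lep* was close to 0 in both. The part of these genes in the members' levels was not tested. *Cebpa* was at 78.7 and 4.8 RPKM and *Pparg* at 37.7 and 16.9 in these libraries.

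The difference in response from D0 to D2, Nsd2 KD minus Ctrl, was -2.32 (-2.45 to -2.19) for *Srebf1*, -1.49 (-1.55 to -1.43) for *Fasn*, and -1.39 (-1.46 to -1.32) for *Scd2*. It was -1.13 (-1.22 to -1.04) for *Scd1*, -0.98 (-1.10 to -0.86) for *Acaca*, -0.74 (-1.02 to -0.45) for *Elovl6*, and -0.68 (-0.78 to -0.59) for *Acly*. For *Acacb* the interval included 0, at 0.47 (-0.08 to 1.03). *Mlxipl* and *Thrsp* gave no difference because they had no read in a library.

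*Srebf1* was the regulator with enough reads to compare in all 3 experiments. It was lower in the perturbed cells than in their controls in the latest library of each, 3.9-fold at D7, 3.79-fold with Rosi, and 4.49-fold in Nsd2 KD cells at D2, while the earlier libraries differed by at most 1.24-fold. *Fasn* in the same comparisons was 9.43-fold, 2.8-fold, and 1.72-fold lower, and *Scd1* 26.8-fold, 5.76-fold, and 1.77-fold.

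Genes around the pathway were taken from 3 fixed lists. The first held 10 genes of citrate export, of acetyl-CoA and NADPH supply, of the pentose phosphate pathway, and of cytosolic malate metabolism. From D0 to D2 in WT cells 7 of the 10 were over 2-fold higher, against 13.6% of all genes. None was lower, against 25.2%, and the median log2 ratio was 1.37. At D7 against D2 4 were over 2-fold higher, against 22.4%, and none lower, against 12.2%. In K36M against WT cells none of the 10 was called at D0 or D2. Of all genes 14.8% and 12.0% were called higher and lower at D0, and 22.2% and 9.90% at D2. At D7 7 were lower, against 13.2%, and none higher, against 19.7%, with a median of -1.54. With Rosi 5 were lower in K36M than in WT cells, against 12.6%, and none higher, against 28.4%. At D2 7 were lower in Nsd2 KD than in Ctrl cells, against 18.5%, and none higher, against 12.0%.

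In this list *Idh1*, the cytosolic NADP isocitrate dehydrogenase, was at 18.5, 80.6, and 103 RPKM in WT cells and at 11.1, 107, and 53.8 in K36M cells at D0, D2, and D7. With Rosi it went from 13.8 to 66.5 RPKM in WT cells with PPARγ, and in K36M cells it was at 13.6 and 11. *Taldo1*, transaldolase of the pentose phosphate pathway, was at 24.7, 81.4, and 124 RPKM in WT and at 35.4, 69.2, and 48 in K36M cells. *Mdh1*, cytosolic malate dehydrogenase, was at 19.2, 62.9, and 148 in WT and at 21.9, 54.2, and 42.3 in K36M cells. All of these resembled *Acly* in that the K36M and WT values lay within 2-fold of each other at D2, and *Taldo1* and *Mdh1* were called lower in K36M cells at D7.

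The second list held 18 other genes of chain elongation and desaturation. From D0 to D2 in WT cells 7 were higher and 3 lower, against 13.6% and 25.2% of all genes, with a median log2 ratio of 0.41. The 3 lower ones were the front-end desaturase genes *Fads1* and *Fads2* and their relative *Fads3*. Lower calls were thus not more frequent in the list than over all genes. In K36M against WT cells at D7, 7 were lower and 1 higher, against 13.2% and 19.7% of all genes, with a median of -0.69. The 1 higher was *Elovl2*, at 0.0213 RPKM against 0, which was also among the 7 higher at D2 in WT cells with an interval that included equality, at 1.16 (-1.06 to 3.79). *Hacd2*, a dehydratase of the elongation cycle, was at 6.16, 140, and 45.1 RPKM in WT cells and at 6.01, 18.8, and 6.25 in K36M cells. *Elovl3*, an elongase gene of brown fat, was at 1.39, 7.38, and 5.67 RPKM in WT and at 3.22, 5.39, and 0.697 in K36M cells. *Scd3* was at 0.0674, 2.75, and 5.91 RPKM in WT cells and at 0.102, 0.552, and 0.26 in K36M cells, with coding identity of 90.5% to *Scd1*, so its reads are uncertain too.

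The third list held 20 regulators of SREBP, ChREBP, LXR, and acetyl-CoA carboxylase activity. Of these 6 were higher and none lower from D0 to D2 in WT cells, against 13.6% and 25.2% of all genes, with a median log2 ratio of -0.09. At D7 5 were lower and 1 higher in K36M than in WT cells, against 13.2% and 19.7% of all genes, with a median of -0.42. *Insig1*, which holds SREBP precursors in the endoplasmic reticulum, was at 6.59, 25.6, and 41.6 RPKM in WT and at 5.86, 15.6, and 25 in K36M cells. *Nr1h3*, the LXRα gene, was at 2.13, 6.48, and 22.2 in WT and at 2.15, 8.46, and 9.81 in K36M cells. *Mlycd*, the malonyl-CoA decarboxylase gene, was at 4.03, 12.6, and 11.1 in WT and at 4.77, 10.7, and 5.81 in K36M cells. With Rosi *Insig1* went from 11.8 to 40.3 RPKM in WT cells with PPARγ, as *Srebf1* did, and was at 13 and 9.63 RPKM in K36M cells.

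The likeness of a member to the others depended on WT D7 more for some members than for others. On log2(RPKM + 1), the correlation of each member with the mean standardized profile of the other 9 ranged over the 14 libraries from 0.548 for *Elovl6* to 0.968 for *Acly*. Without WT D7 it ranged from 0.295 for *Elovl6* to 0.884 for *Acly*. *Fasn* kept 0.832, *Scd2* 0.865, and *Srebf1* 0.785, whereas *Acacb* went to 0.298, *Thrsp* to 0.417, and *Mlxipl* to 0.48. The 14 points share cells, experiments, and depth, so these values are descriptions only.

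Among 10511 other genes that reached 5 RPKM in a library, the profile most like the members' mean was that of *Mdh1* (Pearson r = 0.951 over 14 libraries, 0.924 without WT D7). The next were *Sdha*, a subunit gene of succinate dehydrogenase (0.949), *Slc2a4*, the insulin-regulated glucose transporter gene (0.931), and *Csl* (0.931). *Rnf144b* (0.918), *Ivd* (0.916), *Mcee* (0.913), and *Mc2r* (0.905) were also among the 10 with the highest r. *Slc2a4* was at 0.0331, 0.816, and 41.6 RPKM in WT cells and at 0.0178, 2.74, and 2.41 in K36M cells at D0, D2, and D7. Its r was 0.719 without WT D7, so a large part of the likeness rested on that library, as it did for *Mc2r* (0.578).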

How the data were processed

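RNA was measured by RNA-Seq in 14 libraries, 1 per condition. Per the paper, mRNA was purified with Dynabeads and libraries were made with NEBNext Ultra II for Illumina sequencing. The submitters' processing notes name CASAVA 1.8.2, SICER, and mm9, and the program that counted RNA-Seq reads is not given in the sources used here. The authors deposited RPKM for 29082 RefSeq transcripts per library. Symbols were matched by accession to RefSeq (GRCm38.p6) for 28436 transcripts (97.8%), and unmatched ones kept their identifier. Gene positions are from GENCODE M1 (mm9), and promoter windows are RefSeq sequences of GRCm38.p6.

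Of 26946 transcripts with a value above 0 in 2 or more libraries, 26943 gave back whole reads (99.989%, within 0.002 of a whole number), with Python 3.11.15, numpy 2.4.6, pandas 2.3.3, and scipy 1.17.1. On simulated data 100% of 200 transcripts changed 4-fold were called, 0 of 12409 unchanged ones with over 100 reads were called, and 96.13% of intervals held the true ratio. The simulated reads varied by counting error alone. They therefore do not show how often cultures of the same condition would be called different.

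Genes above 0 in either library were compared by the RPKM ratio with no pseudocount, called over 2-fold, with 95% Clopper-Pearson intervals of the reads. Intervals of differences between responses used the delta method. Intervals and the floor of 3 reads cover counting error only, and 3 reads on a transcript of 1 kb come to 0.123 to 0.246 RPKM. RPKM is relative to all mapped reads, so a few abundant genes can shift the others. A read shared by near-identical genes may be counted for either. Where 1 library had 0 reads the ratio was taken against the floor. No 2 libraries held identical values. The members, lists, and markers were chosen with earlier results of these data known. Named were the members, 3 genes of each list with the largest change from D0 to D2 in WT cells among those reaching 5 RPKM, the 10 genes most like the members' mean profile, of which 2 are not reported here, and *Nsd2*, *Pparg*, *Cebpa*, *Ucp1*, *Fabp4*, and *Adipoq*. The other genes named stand for their list. Alternatives were a pseudocount of 1 RPKM, rescaling by the median ratio, a minimum of 1 RPKM, summed transcripts, and a whole interval beyond 2-fold. The 20 ChIP-Seq samples were not analysed here.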

Additional observations from a re-analysis of the deposited data

Results flagged for a closer look

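In the following cases the control cells and the perturbed cells moved in opposite directions under the same contrast. With 1 library per condition the differences were not tested, and each value is the log2 response of the perturbed cells minus that of the control cells.

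From D2 to D7, where these genes were higher in WT cells and lower in K36M cells, the difference was -3.17 for *Scd1*, -2.41 for *Acly*, -2.27 for *Scd2*, -2.19 for *Acaca*, and -1.65 for *Srebf1*. In K36M cells the *Acly* ratio was close to level, at -0.11 (-0.18 to -0.04).

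With Rosi in cells with PPARγ, genes higher in WT and lower in K36M cells differed by -2.69 for *Scd2*, -2.62 for *Scd1*, -2.05 for *Srebf1*, and -1.08 for *Acaca*. The adipocyte genes summed to 2921 RPKM in WT and 1192 RPKM in K36M cells with Rosi, most of each being *Fabp4*, at 2505 and 1148 RPKM. *Adipoq* was at 132 and 5.64 RPKM, *Plin1* at 148 and 12.1, and *Cidec* at 136 and 25.7, while *Lep* was close to 0 in both.

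From D0 to D2 in the knockdown experiment, *Srebf1* and *Fasn* were higher in Ctrl cells and lower in Nsd2 KD cells, with differences of -2.32 and -1.49. The *Fasn* ratio in Ctrl cells was small, at 0.16 (0.12 to 0.20).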

How the results depend on the processing

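No paired analysis was possible because each condition has 1 library and no replicate numbers are shared. No member changed direction beyond 2-fold under any of the 5 alternatives. Summing transcripts changed no count. With a pseudocount of 1 RPKM, K36M against WT at D0 gave 0 higher and 0 lower members and at D2 1 higher, Rosi gave 2 higher in WT and 0 in K36M cells, K36M against WT with DMSO gave 0 higher, Nsd2 KD at D2 against D0 gave 1 higher, and Nsd2 KD against Ctrl gave 0 higher at D0 and 2 lower at D2. It also left 5 of 6 higher at D2 in WT cells, 9 of 10 lower at D7 and 6 of 9 lower with Rosi in K36M against WT cells, and 1 call fewer in 3 other counts. A minimum of 1 RPKM gave the same changed counts for D0, Rosi, DMSO, Nsd2 KD at D2 against D0, and Nsd2 KD against Ctrl at D0, with 0 higher and 0 lower at D0 in K36M against WT cells, 2 and 0 higher with Rosi in WT and K36M cells, 0 higher with DMSO, and 1 and 0 higher in the knockdown. It left 7 of 9 lower with Rosi in K36M against WT cells and 1 call fewer in 4 other counts. Asking the whole interval to lie beyond 2-fold gave 0 and 0 at D0 and 1 higher at D2 in K36M against WT cells, 0 higher with Rosi in K36M cells, 0 higher with DMSO, 1 higher in Nsd2 KD at D2 against D0, 0 higher in Nsd2 KD against Ctrl at D0, and 2 lower there at D2. *Elovl6*, with an interval reaching inside 2-fold, was the member lost at D7 in K36M against WT cells, where 9 of the 10 lower calls passed this setting, as did 6 of the 9 with Rosi, and 4 other counts lost 1 call. Rescaling shifted all log2 ratios by -0.11 to 0.10 and changed 3 counts. In K36M cells *Acaca* joined the lower calls from D2 to D7, 2 in place of 1, and *Acly*, at 1.04, the higher calls from D0 to D2, 7 in place of 6. *Elovl6*, at -0.91, left the lower calls of K36M against WT cells with Rosi, 8 in place of 9.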
